A study of Mus musculus with 28 samples.

Results

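Mitochondrial DNA of the mouse carries 37 genes, and all 37 were taken from the count tables by their chromosome, chrM, out of 43430 genes listed. They comprise 13 mRNAs, 2 rRNAs and 22 tRNAs, and the 3 kinds are described apart. The mRNAs are counted by annotated gene, although mt-Atp8 overlaps mt-Atp6 and mt-Nd4l overlaps mt-Nd4. Of the 37 genes, 28 lie on the plus strand and 9 on the minus strand, namely mt-Nd6 and 8 tRNAs. All 37 have the same ends in the tables as in GENCODE M21, an annotation of mm10.

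Mitochondrial DNA is copied by its own polymerase into long RNAs that run almost the whole way round the circle, from promoters that lie upstream of the rRNAs. tRNAs sit between most of the rRNAs and mRNAs, and cutting them out frees the mature RNAs. The mRNAs encode core subunits of respiratory complexes I, III and IV and of the ATP synthase (complex V), while the rRNAs build the mitochondrial ribosome that translates them.

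RNA was measured in CD4+ YFP-Foxp3+ CD25+ cells, that is regulatory T (Treg) cells sorted by a fluorescent mark of Foxp3, from C57BL/6NJ mice. RISP is the Rieske iron-sulfur subunit of complex III, encoded by the nuclear gene Uqcrfs1. Cells of 3-week-old mice were RISP_WT (genotype RISP WT, n = 4) or RISP_KO (RISP KO, n = 4), and cells of chimeras aged 8 to 12 weeks were RISP_Chimera_WT (n = 4) or RISP_Chimera_KO (n = 4), with the same genotype names. The in vitro groups were all RISP WT cells of 3-week-old mice, 3 libraries each. They were left untreated or given a blocker of the respiratory chain, namely Piericidin at 1 µM for complex I, 3-NPA at 500 µM for complex II (succinate dehydrogenase), or AntimycinA at 1 µM for complex III. The labels do not say which promoter drove the deletion, what other cells the chimeras carried or how long the inhibitors were applied. Nor do they state whether replicates came from different mice: the p-values rest on the variation among the libraries at hand, and part or all of it may be technical.

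The RISP_WT and RISP_KO libraries came from a Takara kit for very small inputs, and all others from an NEB kit after poly(A) selection. Setting, age and kit thus cannot be told apart between the tables of 3-week-old mice and of chimeras. The libraries of 3-week-old mice held 28446051 to 50769961 counts each, those of chimeras 20437386 to 31019835 and the in vitro ones 2707199 to 3445930. Levels are in CPM, counts scaled to a library total of 1000000. Uqcrfs1 read 5.14 to 7.45 CPM in RISP_KO against 154 to 189 in RISP_WT, and 4.83 to 11.3 in RISP_Chimera_KO against 73.5 to 85.9 in RISP_Chimera_WT. The 6 Treg markers were Cd3e, Cd4, Foxp3, Il2ra, Ctla4 and Ikzf2. Their sum was 3204 to 3615 CPM in the libraries from mice and 5788 to 6696 CPM in vitro. None was absent, but the sum hides differences in single genes. Foxp3, the gene of the sort mark, was far lower in RISP_WT and RISP_KO than in the chimeras or in vitro, by its highest library. The kits differ too, and the reason was not tested. Similar sums therefore do not show that the tables were alike in Foxp3.

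Both kits capture RNA through poly(A) tails, so the counts report tailed RNA. Neither kit marks strand, and the strand setting of the counting is not given in the sources used here. Counts of a minus-strand gene such as mt-Nd6 therefore cannot be told apart from antisense RNA of the plus-strand transcript.

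Sequences at places named in the results are shown here as the plus strand of chrM, in mm10 coordinates, from the GENCODE M21 transcripts. The first is the junction at which the rRNAs end and the mRNAs begin, chrM:2636-2790. Its capitals mark mt-Tl1, a leucine tRNA known to hold the binding site of the termination factor MTERF1, between the end of mt-Rnr2 and the start of mt-Nd1.
mt-Rnr2, mt-Tl1 and mt-Nd1: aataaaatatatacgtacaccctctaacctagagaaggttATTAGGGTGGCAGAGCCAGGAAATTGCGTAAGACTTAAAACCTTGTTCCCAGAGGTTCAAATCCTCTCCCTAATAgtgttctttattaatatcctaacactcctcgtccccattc

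The second is the end of mt-Nd5 at chrM:13512-13605. The 14 bases in capitals also belong to mt-Nd6, which is read from the other strand.
mt-Nd5 and mt-Nd6: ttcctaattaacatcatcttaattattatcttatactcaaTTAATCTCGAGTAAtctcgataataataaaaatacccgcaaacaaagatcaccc

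The third, chrM:15289-15422, follows the last mRNA, mt-Cytb, and holds the threonine tRNA mt-Tt and the proline tRNA mt-Tp. The 67 bases of mt-Tp, a minus-strand gene, are in capitals.
mt-Tt and mt-Tp: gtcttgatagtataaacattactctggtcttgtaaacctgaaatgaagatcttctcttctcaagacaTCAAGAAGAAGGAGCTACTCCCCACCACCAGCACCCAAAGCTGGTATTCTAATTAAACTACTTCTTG

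The fourth is mt-Atp8 at chrM:7766-7969, a subunit of ATP synthase whose last 43 bases, in capitals, are also the first of mt-Atp6.
mt-Atp8: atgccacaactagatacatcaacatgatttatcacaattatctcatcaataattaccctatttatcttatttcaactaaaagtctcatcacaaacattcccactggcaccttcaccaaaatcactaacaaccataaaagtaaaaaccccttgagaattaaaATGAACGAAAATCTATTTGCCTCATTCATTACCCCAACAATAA

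A nuclear copy of mitochondrial DNA on chromosome 1 may limit which mRNAs could be measured, which was not tested. It holds 7 annotated pseudogenes between chr1:24611535 and 24616197, which match mt-Co1 (483 of its 1545 bases), mt-Co2, mt-Atp6, mt-Co3, mt-Nd3, mt-Nd4l and mt-Nd4 (876 of its 1378 bases). Over 4137 aligned bases the copy differed from mitochondrial DNA at 1 base, A1066T, with positions counted from the first base of mt-Co1. It lies at the edge of the match (chrM:6381-6413) and is in capitals. The 3 bases before it match, and those further left lie outside the match.
mt-Co1: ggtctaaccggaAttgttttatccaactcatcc
Gm29216, the copy: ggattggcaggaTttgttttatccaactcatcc

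Reads from identical stretches have no single place in the genome, and how they were counted is not given in the sources used here. The pseudogenes together held 0 to 45 counts per library. The 5 mRNAs that the copy covers nearly whole were also the ones with few counts. In RISP_WT, mt-Co2 averaged 14.7, mt-Atp6 38.1, mt-Co3 0.720, mt-Nd3 6.03 and mt-Nd4l 0.862 CPM per kilobase. The mRNAs with most counts for their length in RISP_WT were mt-Atp8 at 2645, mt-Cytb at 2241, mt-Nd1 at 1632 and mt-Co1 at 1274 CPM per kilobase. In vitro, mt-Co2, mt-Atp8, mt-Atp6, mt-Co3 and mt-Nd4l had 0 counts in all 12 libraries, and mt-Nd3 had a count in 2 of them. A count of 0 allows up to 0.871 to 1.11 CPM per library (3 counts, counting error only). Of the genes with few counts, mt-Nd4l overlaps mt-Nd4, which averaged 425.5 CPM per kilobase in RISP_WT, and mt-Atp6 overlaps mt-Atp8. Whether the few counts came from a low level or from the loss of reads shared with the copy was not tested. The genes with few or 0 counts are compared only within a table. The stretch of the copy opposite mt-Atp8, which lies between mt-Co2 and mt-Atp6, was not analysed here.

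In RISP_KO the mitochondrial mRNAs of 3-week-old mice were lower than in RISP_WT, most of all those far from the rRNAs, while the rRNAs were not. Of 12 mRNAs that passed the filter on low counts, 8 fell and 0 rose (edgeR, Benjamini-Hochberg adjusted p under 0.05), where 5.08% of all 13832 genes tested fell and 4.78% rose. The median log2 fold change of the 12 was -0.55, against 0.00444 over all genes tested. In all 8 that fell, no RISP_KO library reached the lowest RISP_WT library. The 8 were picked by a test on these same libraries, so this lack of overlap is no further support. Its share over all genes was not counted. mt-Nd4l, at 0 to 0.408 CPM in the 8 libraries, was not tested.

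Complex I is the first complex of the respiratory chain and takes electrons from NADH, and 7 of its core subunits are encoded here. mt-Nd4, a proton-pumping subunit, read 512, 560.1, 624 and 649 CPM in RISP_WT and 317, 378, 309.5 and 323 CPM in RISP_KO. All 4 knockout libraries lay below all 4 controls, and mt-Nd4 fell by 0.81 ± 0.10 on the log2 scale (± SE here and below, adjusted p = 6.87e-04). mt-Nd5, another pumping subunit, read 679.5, 586, 639 and 844.5 CPM against 383.5, 473, 478 and 453.5 CPM. The groups did not overlap, with a log2 fold change of -0.61 ± 0.12 (adjusted p = 0.0109). mt-Nd2 read 357, 387, 430.4 and 468 CPM against 268, 324, 296 and 275 CPM, again without overlap, and fell by 0.49 ± 0.10 on the log2 scale (adjusted p = 0.0132).

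mt-Nd6, the 1 complex I mRNA of the minus strand, read 215, 209, 256 and 261 CPM in RISP_WT and 147.5, 183, 152.5 and 133 CPM in RISP_KO. It fell by 0.60 ± 0.12 (adjusted p = 0.00865), close to its plus-strand neighbour mt-Nd5. mt-Nd3, inside the nuclear copy, read only 1.89 to 2.62 CPM against 0.534 to 1.23 CPM, and fell by 1.22 ± 0.30 (adjusted p = 0.0254). Its call was lost without any 1 of the 4 RISP_WT replicates or without RISP_KO replicate 3 (adjusted p 0.0526 to 0.0809). mt-Nd1, the mRNA next to the rRNAs, read 1573, 1433, 1532 and 1711 CPM against 1346, 1339, 1498 and 1485 CPM. Its groups overlapped and its difference was not called (log2 fold change -0.13 ± 0.08, adjusted p = 0.373).

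Complex III passes electrons to cytochrome c, and mt-Cytb, its cytochrome b, is the partner of RISP in that complex and its single subunit encoded by mitochondrial DNA. mt-Cytb read 2473, 2434, 2412 and 2935 CPM in RISP_WT and 1710, 1514, 1430 and 1631 CPM in RISP_KO. The highest knockout library was well below the lowest control, and mt-Cytb fell by 0.70 ± 0.09 on the log2 scale (adjusted p = 7.34e-04). The share of mt-Cytb in the counts of all 13 mRNAs was 29.8% in RISP_WT and 23.7% in RISP_KO.

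Complex IV, cytochrome c oxidase, reduces oxygen. Its catalytic subunit mt-Co1 read 1988, 1863, 1841 and 2184 CPM in RISP_WT and 1836, 1921, 2013 and 2387 CPM in RISP_KO. These groups overlapped throughout (log2 fold change 0.06 ± 0.10, adjusted p = 0.741). mt-Co2, at 8.45 to 12.3 CPM against 9.11 to 12.9 CPM, and mt-Co3, at 0.432 to 0.686 CPM against 0.333 to 0.647 CPM, also overlapped and were not called.

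Both mitochondrial genes of ATP synthase fell. They overlap by 43 bases, so their falls are not separate support. mt-Atp8 read 567, 466, 514.5 and 611 CPM in RISP_WT and 355, 359, 399.7 and 377 CPM in RISP_KO. mt-Atp6, which forms part of the proton channel of ATP synthase, read 23.2 to 27.3 CPM against 16.6 to 17.6 CPM. Neither overlapped, with log2 fold changes of -0.52 ± 0.10 for mt-Atp8 (adjusted p = 0.00726) and -0.58 ± 0.11 for mt-Atp6 (adjusted p = 0.00915).

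The rRNAs had higher means in RISP_KO, but neither passed the test. mt-Rnr2, the large-subunit rRNA, read 2670, 2263, 3119 and 2823 CPM in RISP_WT and 3033, 3484, 3240.0 and 3704 CPM in RISP_KO. Only the lowest knockout library lay within the range of the controls (log2 fold change 0.32 ± 0.11, adjusted p = 0.105). mt-Rnr1, the small-subunit rRNA, read 222, 202, 287 and 249 CPM against 271, 293, 266 and 309.7 CPM, with overlap (0.26 ± 0.12, adjusted p = 0.199). Of the rRNAs, 0 of 2 were called with edgeR and 0 with DESeq2, and 1 had an unadjusted p under 0.05.

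**Figure D1:**
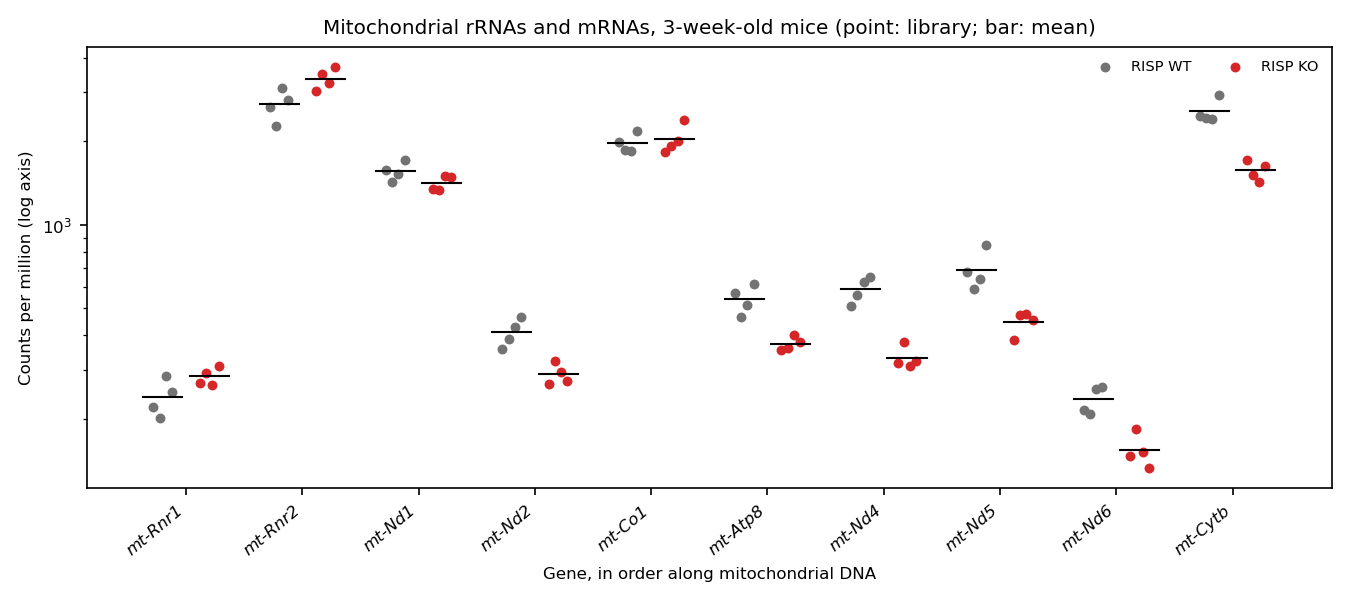
Levels in CPM on a log axis for the 2 rRNAs and 8 mRNAs in order along mitochondrial DNA, in 4 RISP_WT and 4 RISP_KO libraries of 3-week-old mice. Points are libraries and bars group means; from mt-Nd4 rightwards the red points all lie below the grey ones, while for mt-Co1 they overlap.

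Of the 22 tRNAs, 8 passed the filter, 1 fell and 0 rose. tRNAs are short and carry no long tail, so their few counts may come from fragments or from longer RNAs that include them. The origin of these counts was not tested. In 3-week-old mice 98.7 to 99.2% of the tRNA counts lay at minus-strand tRNAs, opposite the plus-strand transcript. mt-Tp had 321, 274, 371 and 543 counts in RISP_WT and 187, 118, 183 and 212 counts in RISP_KO, with no overlap. It fell by 0.82 ± 0.19 (adjusted p = 0.0205), and the call was lost without RISP_WT replicate 3, RISP_WT replicate 4 or RISP_KO replicate 3 (adjusted p 0.0502 to 0.0666). mt-Tq, the glutamine tRNA, had 374, 372, 640 and 765 counts against 333, 272, 824 and 717, with overlap, and mt-Tc 54 to 115 against 49 to 89. The most abundant, mt-Ts1 (a serine tRNA that abuts mt-Co1), had 1577 to 2946 counts against 1573 to 2378. The RISP_WT libraries were deeper, and in CPM mt-Ts1 read 41.6 to 60.3 against 44.2 to 68.1. It was not called (0.17 ± 0.16, adjusted p = 0.540). mt-Te, the glutamate tRNA between mt-Nd6 and mt-Cytb, had 155 to 308 counts against 91 to 125. In CPM it read 4.09 to 6.25 against 2.56 to 4.22, with overlap. It was not called either (-0.63 ± 0.22, adjusted p = 0.0980), though DESeq2 called it lower (adjusted p = 0.0473).

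Mitochondrial RNA as a whole took 1.16% ± 0.10 (SD, n = 4) of the counts in RISP_WT and 1.04% ± 0.06 (n = 4) in RISP_KO, with overlap. Its mRNAs alone took 0.797 to 0.971% in RISP_WT and 0.639 to 0.709% in RISP_KO, without overlap. The ratio of rRNA to mRNA counts was 0.344, 0.309, 0.411 and 0.317 in RISP_WT and 0.517, 0.579, 0.531 and 0.566 in RISP_KO. Every knockout library had more rRNA per mRNA count than any control. These sums over genes are given without a test. In bulk samples, fewer cells of a type and less RNA per cell cannot be told apart.

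**Figure D2:**
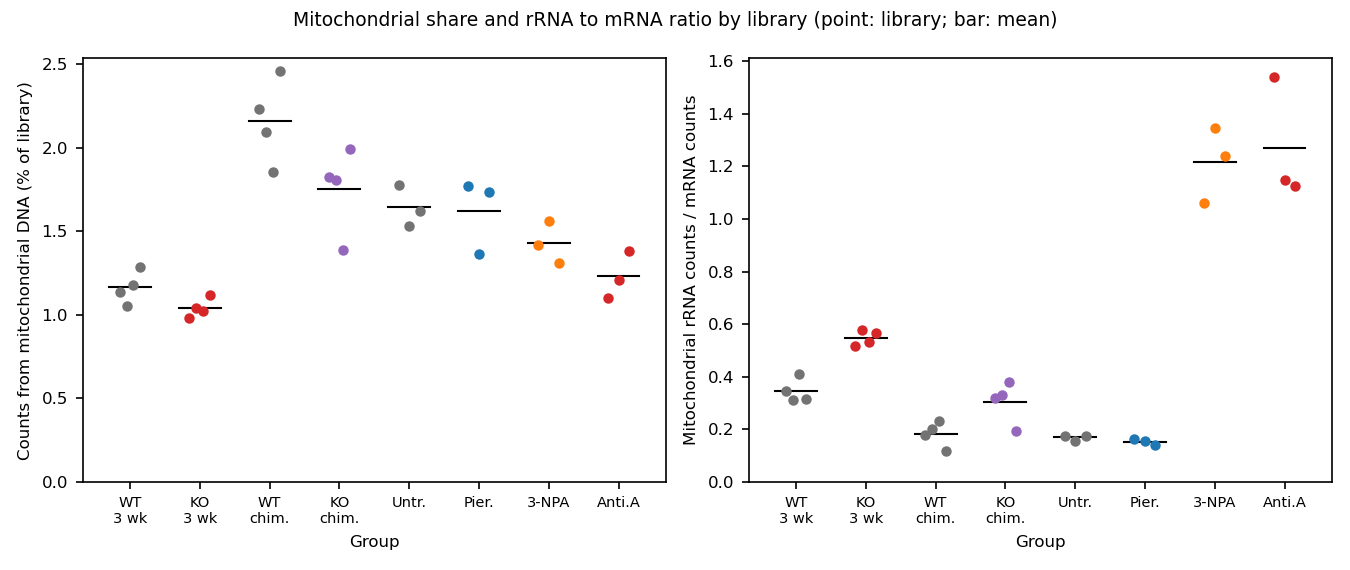
Left, percent of each library's counts that came from mitochondrial DNA; right, ratio of mitochondrial rRNA to mRNA counts, both by group (WT and KO of 3-week-old mice and of chimeras, then untreated, Piericidin, 3-NPA and AntimycinA). Points are libraries and bars means; the ratio lies at 0.138 to 0.175 in the 6 untreated and Piericidin libraries and at 1.06 to 1.54 in the 6 with 3-NPA or AntimycinA.

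Several lists of markers of other cells moved with genotype in the 3-week-old mice. The 6 B cell markers summed to 48.9 to 65.2 CPM in RISP_WT and 21.4 to 30.2 CPM in RISP_KO, with 2 of 5 tested lower. The 9 monocyte and macrophage markers summed to 14.8 to 42.3 CPM against 5.93 to 10.8 CPM, with 4 of 7 tested lower. The 3 natural killer cell markers summed to 3.83 to 7.15 CPM against 12.7 to 21.5 CPM, with 1 of 2 tested higher. Over the 8 libraries Eomes reached 19.2, Klrb1c 5.33 and Ncr1 0.343 CPM, so the highest of these sums rest mostly on Eomes. Whether natural killer cells were more frequent was not tested. The 5 dendritic cell markers summed to 5.57 to 6.60 CPM against 3.18 to 5.84 CPM, with overlap and with 1 of 3 tested lower. The 4 erythroid markers summed to 0.540 to 111 CPM against 2.35 to 275 CPM, with overlap. Of these 4, 0 were called, and their median log2 fold change was 1.21. In this table Tnfrsf17 (plasma cells) and Clec9a (dendritic cells) were at 0 in every library. The part of these cells in the mitochondrial differences was not tested.

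In the chimeras all 13 mRNAs passed the filter and had log2 fold changes below 0, but 1 of them, mt-Cytb, was called. Here 0.542% of 14399 genes tested fell and 0.167% rose. The median of the 13 was -0.62, against 0.00036 over all genes tested. A further 8 mRNAs had an unadjusted p under 0.05, so that 9 of 13 did in all, and DESeq2 called 4. The shares above are of edgeR calls. Over all genes DESeq2 called more, 446, and the share with an unadjusted p under 0.05 was not counted.

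mt-Cytb read 3269, 3156, 2716 and 3825 CPM in RISP_Chimera_WT and 1609, 1786, 1132 and 2317 CPM in RISP_Chimera_KO. The groups did not overlap, and mt-Cytb fell by 0.94 ± 0.16 on the log2 scale (adjusted p = 0.0210). The call was lost without replicate 1, 2 or 4 of RISP_Chimera_WT or replicate 1 of RISP_Chimera_KO (adjusted p 0.0656 to 0.0742), while the log2 fold change stayed between -0.95 and -0.86.

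Among the complex I mRNAs, mt-Nd4 read 1054, 980, 769 and 1207 CPM in RISP_Chimera_WT and 526, 563, 302 and 747 CPM in RISP_Chimera_KO. No knockout library reached a control, but the test over all genes did not call it (-0.93 ± 0.20, adjusted p = 0.0623). mt-Nd6 read 484 to 797 CPM against 305.5 to 521 CPM, with overlap (-0.73 ± 0.15, adjusted p = 0.0535), and mt-Nd5 read 1676 to 2856 CPM against 859.7 to 1842 CPM, with overlap (-0.77 ± 0.19, adjusted p = 0.102). mt-Nd2 read 1178 to 1729 CPM against 851 to 1378 CPM (-0.34 ± 0.13, adjusted p = 0.316). mt-Nd1 read 2141, 1913, 1655 and 2256 CPM against 2211, 2017, 1450 and 2193 CPM, nearly the same in both groups (-0.03 ± 0.12, adjusted p = 0.940). mt-Nd3 and mt-Nd4l, inside the copy, had at most 3.58 CPM in any chimera library and were not called.

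mt-Nd4 was called without RISP_Chimera_KO replicate 4 (adjusted p = 0.0285), as was mt-Nd5 (0.0253). mt-Nd6 was called without that library or without RISP_Chimera_WT replicate 3 (0.0154 and 0.0429). RISP_Chimera_KO replicate 4 had the highest mt-Cytb, mt-Nd4, mt-Nd5 and mt-Nd6 of its group.

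For complex IV, mt-Co1 read 6996, 6398, 5821 and 8231 CPM in RISP_Chimera_WT and 5917, 5743, 4754 and 6868 CPM in RISP_Chimera_KO, with overlap (-0.26 ± 0.11, adjusted p = 0.337). mt-Co2 read 9.74 to 12.3 CPM against 6.48 to 10.2 CPM, and mt-Co3 1.74 to 2.64 CPM against 1.11 to 2.23 CPM, both with overlap. For complex V, mt-Atp8 read 1019, 957, 745 and 1077 CPM against 630.5, 656, 396 and 815.5 CPM, with overlap (-0.62 ± 0.17, adjusted p = 0.129). mt-Atp6 read 6.90 to 12.5 CPM against 4.51 to 6.33 CPM, without overlap, and was not called (-0.94 ± 0.20, adjusted p = 0.0602). It was called without RISP_Chimera_WT replicate 3 or RISP_Chimera_KO replicate 2 (adjusted p = 0.0365 and 0.0440).

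The rRNA mt-Rnr1 read 1044, 1041, 825 and 604 CPM in RISP_Chimera_WT and 1514, 1385, 1327 and 1037 CPM in RISP_Chimera_KO. Only the lowest knockout library fell within the range of the controls, and the difference was not called (0.57 ± 0.16, adjusted p = 0.159). mt-Rnr2 read 1944 to 2648 CPM against 2168 to 3078 CPM (0.16 ± 0.12, adjusted p = 0.624). Of the 2 rRNAs, 0 were called by edgeR or DESeq2 and 1 had an unadjusted p under 0.05. The rRNA to mRNA ratio was 0.178, 0.201, 0.231 and 0.116 in controls and 0.320, 0.329, 0.378 and 0.192 in knockouts, with replicate 4 lowest in each group.

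mt-Tp again was the single tRNA called, of 3 tested. It had 349, 342, 393 and 483 counts in RISP_Chimera_WT and 200, 232, 150 and 236 in RISP_Chimera_KO, and fell by 1.06 ± 0.19 (adjusted p = 0.0246). The call was lost without replicate 1 or 4 of RISP_Chimera_WT or replicate 1 or 3 of RISP_Chimera_KO (adjusted p 0.0685 to 0.0794). mt-Tc, the cysteine tRNA, had 204 to 348 counts against 262 to 465 and was not called (0.40 ± 0.21, adjusted p = 0.472). mt-Ts1, at 1573 to 2946 counts in 3-week-old mice, had 0 to 14 here. The kits of the 2 tables differ, so these levels are set side by side only.

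In the chimeras the summed B cell markers were 23.8 to 46.0 CPM in controls and 17.5 to 97.2 CPM in knockouts, and the monocyte and macrophage markers 22.0 to 52.1 CPM and 26.0 to 79.0 CPM. Both pairs of ranges overlapped, with 0 of 6 and 0 of 7 tested markers called. The median log2 fold change was 0.49 for the B cell markers and 0.56 for the monocyte and macrophage markers, and their part in the result was not tested.

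The difference of the knockout effects, chimeras minus 3-week-old mice, was tested as an interaction in 1 fit of 16 libraries. Of 13 mRNAs, 0 were called higher or lower by edgeR and 0 by DESeq2, and 1, mt-Co1, had an unadjusted p under 0.05. Of 15580 genes tested, 1.23% were called higher and 2.04% lower. The difference in log2 fold change was -0.27 ± 0.20 for mt-Cytb (adjusted p = 0.559), -0.13 ± 0.25 for mt-Nd4 (0.848) and -0.34 ± 0.16 for mt-Co1 (0.296). A p above the threshold does not show that the effects were alike. Of the 2 rRNAs and 8 tRNAs tested, edgeR and DESeq2 called 0, and 0 had an unadjusted p under 0.05.

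Across the mRNAs, the log2 fold change tended to be lower the farther a gene starts from the beginning of the numbering. In RISP_KO Spearman's rho between start and log2 fold change was -0.76 over 12 mRNAs, and in the chimeras -0.74 over 13. Without the minus-strand mt-Nd6 it was -0.76 over 11 and -0.76 over 12. Genes of a library share its depth and were transcribed together, so these are descriptions and carry no p. The order was not strict. In RISP_KO the log2 fold change was -0.49 at mt-Nd2, but 0.06 at mt-Co1 and 0.11 at mt-Co2, which come after it. In the chimeras it was -0.34 at mt-Nd2 and -0.26 at mt-Co1.

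**Figure D3:**
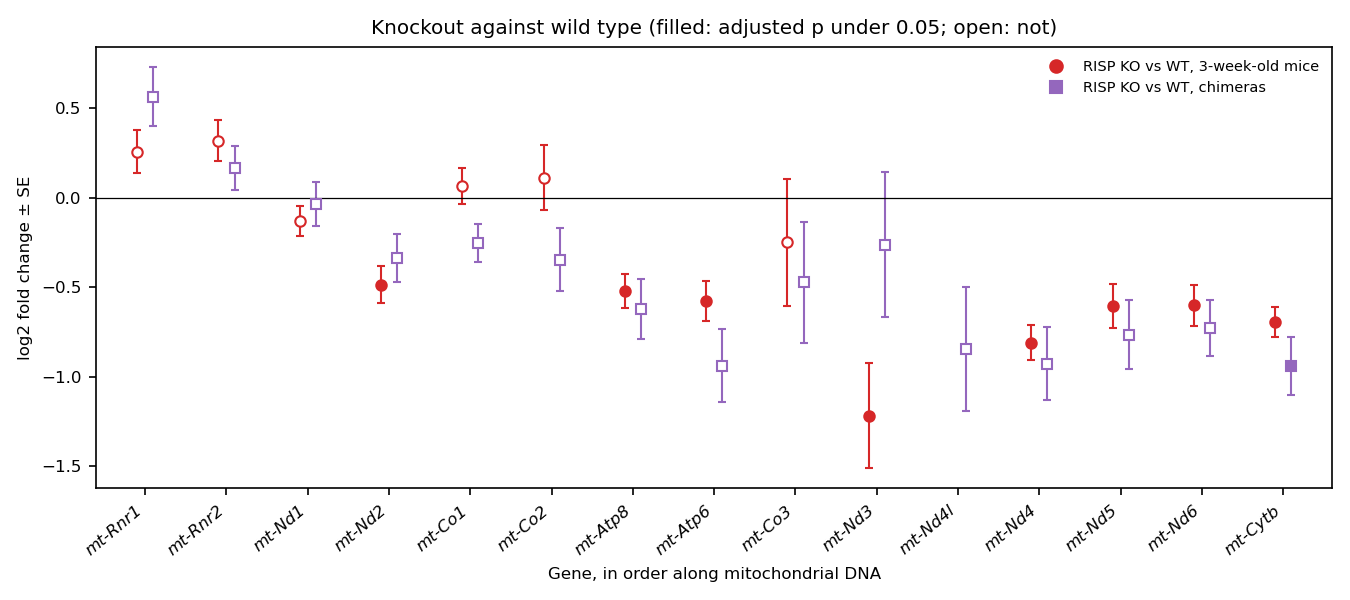
log2 fold change ± SE of knockout against wild type for the 2 rRNAs and 13 mRNAs in order along mitochondrial DNA, circles for 3-week-old mice and squares for chimeras, filled where the adjusted p was under 0.05. Both series go from above 0 at the rRNAs to about -0.7 and -0.94 at mt-Cytb; mt-Nd3, far below the others in 3-week-old mice, rests on under 3 CPM.

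In vitro, both rRNAs rose and all 7 mRNAs that could be tested fell with 3-NPA and with AntimycinA, whereas with Piericidin no rRNA rose and mRNAs changed in both directions. The comparisons share the 3 untreated libraries, so their values are given side by side and not as separate support. Only 7 mRNAs (mt-Nd1, mt-Nd2, mt-Co1, mt-Nd4, mt-Nd5, mt-Nd6 and mt-Cytb) passed the filter, the other 6 being at or near 0 counts.

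With 3-NPA, 7 of 7 tested mRNAs fell and 2 of 2 rRNAs rose, where 1.87% of 11689 genes tested fell and 1.35% rose. The median over the 7 mRNAs was -1.92, against -0.00579 over all genes tested. With AntimycinA, 7 of 7 mRNAs fell and 2 of 2 rRNAs rose, where 8.5% of genes fell and 6.5% rose, and the median over the 7 was -1.95, against 0.0219 over all genes tested. With Piericidin, 3 of 7 mRNAs fell and 1 rose, where 7.93% of genes fell and 5.62% rose, and 1 of 2 rRNAs fell.

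mt-Cytb read 2892, 2495 and 2524 CPM untreated, 2091, 1700 and 2147 CPM with Piericidin, 516, 459 and 373 CPM with 3-NPA, and 262, 399.8 and 438 CPM with AntimycinA. The 3-NPA and AntimycinA libraries were all far below the untreated ones, and the Piericidin libraries lay between. It fell by 2.59 ± 0.12 with 3-NPA (adjusted p = 7.45e-19), by 2.87 ± 0.12 with AntimycinA (3.35e-20) and by 0.44 ± 0.11 with Piericidin (0.00722). The Piericidin call was lost without In_vitro_Untreated replicate 1 or In_vitro_Piericidin replicate 2 (adjusted p = 0.0705 and 0.0882) and with DESeq2 (0.132).

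Of complex I, mt-Nd4 read 894, 859.7 and 913 CPM untreated, 724, 494 and 697 CPM with Piericidin, 246, 171 and 183 CPM with 3-NPA, and 74.6, 136 and 166 CPM with AntimycinA. No treated library reached the lowest untreated one. It fell by 2.19 ± 0.15 with 3-NPA (adjusted p = 6.22e-14), by 2.84 ± 0.16 with AntimycinA (5.36e-17) and by 0.50 ± 0.14 with Piericidin (0.0136). The last call was lost without In_vitro_Untreated replicate 1 or 3 or In_vitro_Piericidin replicate 2 (adjusted p 0.0516 to 0.161) and with DESeq2 (0.236).

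mt-Nd5 read 1827, 1782 and 1780 CPM untreated, 1735, 1321 and 1827 CPM with Piericidin, 583, 462 and 415 CPM with 3-NPA, and 359.5, 390.5 and 451 CPM with AntimycinA. It fell by 1.92 ± 0.11 with 3-NPA and by 2.19 ± 0.11 with AntimycinA (adjusted p = 5.32e-17 and 1.29e-18), and with Piericidin it was not called (-0.16 ± 0.10, adjusted p = 0.319). mt-Nd6, on the other strand, read 677, 539 and 593 CPM untreated, 668, 452 and 552 CPM with Piericidin, 174, 167 and 117.5 CPM with 3-NPA, and 127.5, 151 and 198 CPM with AntimycinA. It fell by 2.02 ± 0.14 with 3-NPA and by 1.95 ± 0.14 with AntimycinA (adjusted p = 3.79e-14 and 9.72e-14), close to mt-Nd5, and was not called with Piericidin (-0.14 ± 0.13, adjusted p = 0.559).

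mt-Nd2 read 1556, 1345 and 1361 CPM untreated, 1126, 822 and 1091 CPM with Piericidin, 595, 613 and 517 CPM with 3-NPA, and 316, 462 and 492 CPM with AntimycinA. It was lower in all 9 treated libraries, by 0.51 ± 0.11, 1.35 ± 0.11 and 1.77 ± 0.12 on the log2 scale (adjusted p = 0.00124, 3.19e-11 and 1.17e-14). mt-Nd1 read 2767, 2231 and 2440.0 CPM untreated, 2500, 1815 and 2197 CPM with Piericidin, 2023, 1967 and 1764 CPM with 3-NPA, and 1267, 1614 and 1766 CPM with AntimycinA. It had the smallest fall of the 7 under both agents, 0.41 ± 0.10 with 3-NPA (adjusted p = 0.0142) and 0.70 ± 0.10 with AntimycinA (1.90e-06). The 3-NPA call was lost without In_vitro_Untreated replicate 1 or 3 or In_vitro_3-NPA replicate 3 (adjusted p 0.0580 to 0.148) and with DESeq2 (0.128). With Piericidin mt-Nd1 was not called (-0.21 ± 0.10, adjusted p = 0.167), but was called without In_vitro_Piericidin replicate 1 (0.0189).

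mt-Co1 was the mRNA on which the agents moved apart. It read 4449, 3919 and 4134 CPM untreated, 6349, 5147 and 6649 CPM with Piericidin, 2708, 2810 and 2454 CPM with 3-NPA, and 1922, 2461 and 2959 CPM with AntimycinA. Every Piericidin library was above and every 3-NPA and AntimycinA library below all untreated ones. It rose by 0.51 ± 0.10 with Piericidin (adjusted p = 2.70e-04) and fell by 0.69 ± 0.10 with 3-NPA (2.11e-05) and by 0.79 ± 0.10 with AntimycinA (1.48e-07).

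The rRNA mt-Rnr1 is the first gene after mt-Tf on the plus strand. It read 881, 664 and 725.5 CPM untreated and 1026, 711 and 751 CPM with Piericidin. With 3-NPA it read 3278, 4151 and 3309 CPM, and with AntimycinA 3395, 3386 and 3788 CPM. The 3-NPA and AntimycinA libraries stood far above all others. It rose by 2.20 ± 0.11 with 3-NPA (4.6-fold, adjusted p = 2.48e-18) and by 2.19 ± 0.11 with AntimycinA (4.57-fold, adjusted p = 1.89e-18), and was not called with Piericidin (0.11 ± 0.11, adjusted p = 0.573).

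mt-Rnr2 read 1732, 1389 and 1684 CPM untreated, 1430, 1117 and 1343 CPM with Piericidin, 3989, 4808 and 3918 CPM with 3-NPA, and 3273, 3069 and 3492 CPM with AntimycinA. It rose by 1.36 ± 0.09 with 3-NPA and 1.01 ± 0.09 with AntimycinA (adjusted p = 3.51e-14 and 1.34e-10). With Piericidin it fell by 0.33 ± 0.09 (adjusted p = 0.0114), though the groups overlapped. That call was lost without In_vitro_Untreated replicate 1 or 3 or In_vitro_Piericidin replicate 2 (adjusted p 0.0729 to 0.140) and with DESeq2 (0.0906).

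**Figure D4:**
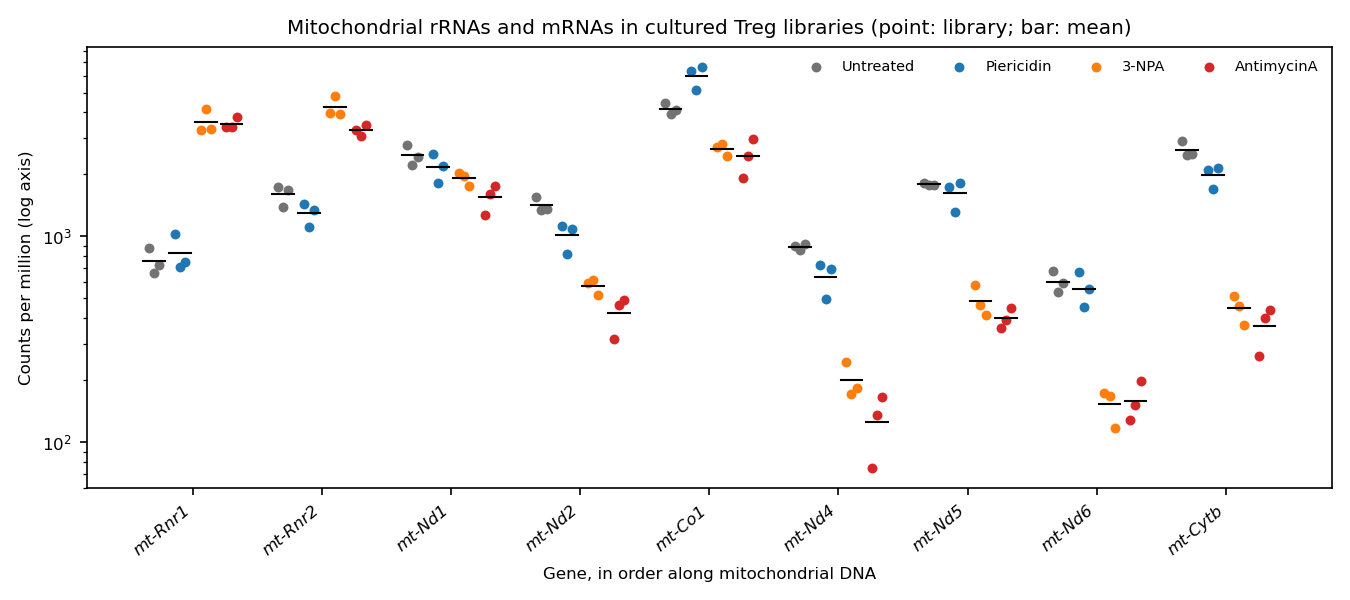
Levels in CPM on a log axis for the 2 rRNAs and the 7 mRNAs tested, in order along mitochondrial DNA, in 3 libraries each of untreated, Piericidin, 3-NPA and AntimycinA cells. Points are libraries and bars group means; the orange and red points lie above the grey ones for both rRNAs and below them for all 7 mRNAs.

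The sums follow. rRNAs took 0.205 to 0.261% of the counts untreated, 0.183 to 0.246% with Piericidin, 0.723 to 0.896% with 3-NPA and 0.646 to 0.728% with AntimycinA. mRNAs took 1.32 to 1.51%, 1.17 to 1.52%, 0.582 to 0.684% and 0.433 to 0.647% in the same order. Mitochondrial RNA as a whole took 1.64% ± 0.12 (SD, n = 3) untreated, 1.62% ± 0.23 (n = 3) with Piericidin, 1.43% ± 0.13 (n = 3) with 3-NPA and 1.23% ± 0.14 (n = 3) with AntimycinA. Piericidin replicate 2, at 1.36%, was the lowest of its group.

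tRNAs had 57 to 257 counts per in vitro library in all, and 7 passed the filter. mt-Tp, opposite the end of the transcript, had 132, 75 and 93 counts in the untreated libraries, 55, 43 and 87 counts in those with Piericidin, 41, 32 and 41 counts in those with 3-NPA, and 17, 37 and 39 counts in those with AntimycinA. Only the lowest untreated and the highest Piericidin library overlapped. It fell by 1.36 ± 0.31 with 3-NPA (adjusted p = 0.00771) and by 1.62 ± 0.31 with AntimycinA (2.18e-04). The 3-NPA call was lost without In_vitro_Untreated replicate 1 or In_vitro_3-NPA replicate 3 (adjusted p = 0.106 and 0.0580). With Piericidin 0 of 7 tRNAs were called by edgeR or DESeq2, and 1 had an unadjusted p under 0.05.

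mt-Tt, downstream of mt-Cytb on the same strand, had 14, 29 and 13 counts untreated and 0, 1 and 0 with AntimycinA. The ratio of summed counts, scaled to library totals, was 0.0192 (95% exact conditional binomial interval 0.000477 to 0.111, counting error only), and edgeR called it lower (adjusted p = 8.67e-04). mt-Te had 9, 36 and 14 counts untreated and 0, 0 and 3 with AntimycinA, a ratio of 0.0545 (interval 0.0109 to 0.167), and was called lower (adjusted p = 0.00759). That call was lost without In_vitro_Untreated replicate 2 or In_vitro_AntimycinA replicate 2 (adjusted p = 0.0687 and 0.0618). With 3-NPA, mt-Tt had 10, 5 and 1 counts and mt-Te 32, 4 and 2, and neither was called.

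**Figure D5:**
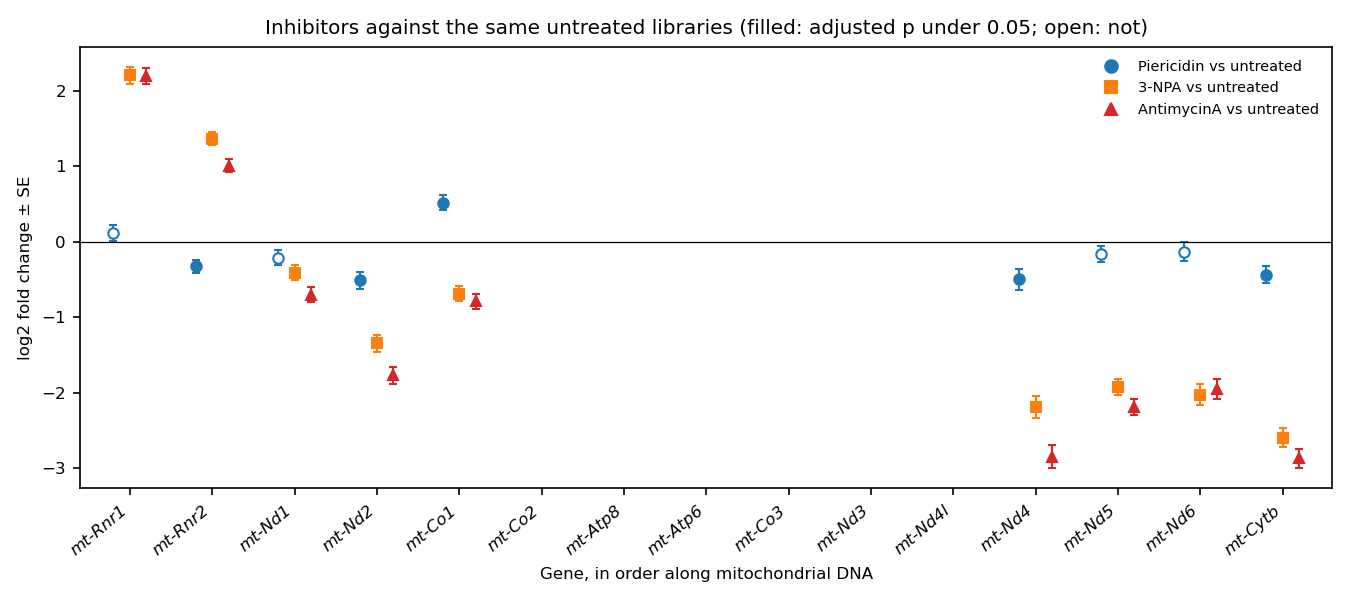
log2 fold change ± SE against the same 3 untreated libraries for Piericidin (circles), 3-NPA (squares) and AntimycinA (triangles), genes in order along mitochondrial DNA, filled where the adjusted p was under 0.05; mt-Co2 to mt-Nd4l were not tested. 3-NPA and AntimycinA go from about 2.2 at mt-Rnr1 to -2.59 and -2.87 at mt-Cytb, and Piericidin stays between -0.51 and 0.51.

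Along mitochondrial DNA, the log2 fold changes of the 7 mRNAs had a Spearman's rho with gene start of -0.86 with 3-NPA, -0.82 with AntimycinA and 0.18 with Piericidin, as descriptions over 7 genes of the same libraries. The order was not strict here either. With 3-NPA mt-Nd2 stood at -1.35 and mt-Co1 after it at -0.69, and with AntimycinA at -1.77 and -0.79. The step from rise to fall lay between mt-Rnr2 and mt-Nd1, where the mt-Tl1 sequence printed above lies, with both 3-NPA and AntimycinA. The kind of RNA changes from rRNA to mRNA at the same place, so position and kind cannot be told apart. mt-Tl1 itself had at most 1 count in any in vitro library, and a part of it in the step was not tested.

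The agents were also compared directly, in the same fit. AntimycinA against Piericidin gave 7 of 7 mRNAs lower and 2 of 2 rRNAs higher, where 0.299% of genes were lower and 0.436% higher. mt-Cytb differed by -2.43 ± 0.12 (adjusted p = 7.58e-18), mt-Co1 by -1.31 ± 0.10 (1.36e-12) and mt-Rnr1 by 2.08 ± 0.11 (1.19e-17). The smallest difference, of mt-Nd1 (-0.49 ± 0.10, adjusted p = 0.00559), lost its call without In_vitro_Piericidin replicate 1 or In_vitro_AntimycinA replicate 1 (adjusted p = 0.0998 and 0.104) and with DESeq2.

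Piericidin against 3-NPA gave 6 of 7 mRNAs higher and 2 of 2 rRNAs lower, where 1.87% of genes were higher and 2.43% lower. mt-Cytb differed by 2.16 ± 0.12 (adjusted p = 1.04e-16), mt-Nd6 by 1.89 ± 0.14 (3.67e-13), and mt-Rnr1 by -2.09 ± 0.11 (2.68e-17). mt-Nd1 was the 1 mRNA not called (0.20 ± 0.10, adjusted p = 0.302).

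AntimycinA against 3-NPA differed less. Of 7 mRNAs 2 were lower, mt-Nd4 by -0.66 ± 0.16 (adjusted p = 0.0105) and mt-Nd2 by -0.42 ± 0.11 (0.0256), where 2.38% of genes were lower and 1.6% higher. Of the rRNAs, mt-Rnr2 was lower (-0.36 ± 0.09, adjusted p = 0.0148) and mt-Rnr1 was not called (-0.01 ± 0.10, adjusted p = 0.980). DESeq2 called none of these 3. The mt-Nd4 call was lost without replicate 1 of In_vitro_3-NPA or of In_vitro_AntimycinA (adjusted p = 0.134 and 0.0952), the mt-Nd2 call without In_vitro_3-NPA replicate 1 or 2 or In_vitro_AntimycinA replicate 1 (0.0676 to 0.181), and the mt-Rnr2 call without replicate 2 of either group (0.0858 and 0.0936). mt-Cytb (-0.27 ± 0.12, adjusted p = 0.216) and mt-Nd5 (-0.27 ± 0.11, adjusted p = 0.157) were not called. tRNAs gave 0 of 7 calls by edgeR and by DESeq2 in each of these 3 comparisons, with 3, 2 and 2 at an unadjusted p under 0.05 in the order given.

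Markers of other cells were also read in vitro. The plasma cell markers summed to 31.0 to 59.1 CPM untreated and 42.8 to 56.0 CPM in the treated libraries, and the dendritic cell markers to 11.7 to 15.8 CPM and 7.02 to 23.4 CPM, with overlap and with the 1 gene tested of each list not called. The B cell markers summed to 5.26 to 7.90 CPM untreated, 2.91 to 7.98 CPM with Piericidin, 8.996 to 13.7 CPM with 3-NPA and 8.65 to 21.4 CPM with AntimycinA, with 1 of 2 tested called higher with AntimycinA. Ms4a1 of that list, and Fcgr1 and C1qb of the monocyte and macrophage list, were at 0 in all 12 libraries. The part of such cells in the result was not tested.

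The nuclear genes that make, process and degrade mitochondrial RNA were read beside the members. Of 51 such genes tested in RISP_KO, edgeR called 0, where 4.78% of all genes tested rose and 5.08% fell. Of the 51, 9 had an unadjusted p under 0.05 and DESeq2 called 2 higher. Their median log2 fold change was 0.03. In the chimeras 0 of 50 were called (3 unadjusted, 0 by DESeq2), with a median of -0.01. Only 0.167% of all genes tested rose there and 0.542% fell, so 0 of 50 says little. How many of all genes had an unadjusted p under 0.05 was not counted. Of 49 tested in vitro, 2 fell with Piericidin, 0 changed with 3-NPA (9 unadjusted, 1 by DESeq2) and 3 fell with AntimycinA, with medians of -0.15, -0.15 and -0.09. Over all genes 7.93% fell with Piericidin and 8.5% with AntimycinA, so that 2 and 3 of 49 are no larger a share than the background. With 3-NPA 1.87% of all genes fell and 1.35% rose. The genes that fell, named after their values were seen, were Tbrg4 and Elac2 under both Piericidin and AntimycinA, and Fastkd3 under AntimycinA. Elac2 cuts the 3′ end of mitochondrial tRNAs, and Tbrg4 and Fastkd3 belong to the FASTK family of mitochondrial RNA-binding proteins. Elac2 fell by 0.60 ± 0.16 with Piericidin (adjusted p = 0.00863) and 0.61 ± 0.16 with AntimycinA (0.00647).

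The nuclear subunits that join the products of these mRNAs had few calls in the knockouts. Of 36 complex I genes, 1 rose in RISP_KO, Ndufa6 (0.38 ± 0.11, adjusted p = 0.0485), of 17 complex V genes 1 rose, Atp5b (0.25 ± 0.07, adjusted p = 0.0411), of 9 complex III genes Uqcrfs1 alone fell, and of 12 complex IV genes 0 were called (1 unadjusted, 0 by DESeq2). With 4.78% of all genes higher in RISP_KO, single calls in lists of 36 and 17 are near the background. In the chimeras Uqcrfs1 was the single gene edgeR called in the 4 lists. There 10 of 36, 3 of 9, 3 of 12 and 4 of 17 genes of complexes I, III, IV and V had an unadjusted p under 0.05. For the difference of knockout effects, chimeras minus 3-week-old mice, these counts were 16, 5, 4 and 8. For that difference edgeR called 1 complex I gene lower and Uqcrfs1 higher, where 2.04% of all genes were lower and 1.23% higher. The share of all genes with an unadjusted p under 0.05 was not counted. The median log2 fold changes of complexes I, III, IV and V were 0.12, 0.01, 0.10 and 0.11 in RISP_KO and -0.13, -0.16, -0.15 and -0.10 in the chimeras, against -0.55 and -0.62 for the mRNAs of mitochondrial DNA.

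With 3-NPA, 1 of 36 complex I genes fell, Ndufa5, and 0 of 9, 12 and 16 genes of complexes III, IV and V were called (1, 3 and 1 unadjusted, 0 by DESeq2). With Piericidin 2 of 36 (Ndufb8 and Ndufb3), 1 of 9 (Uqcr10), 5 of 12 (Cox8a, Cox5a, Cox4i1, Cox7b and Cox6a1) and 7 of 16 fell. With AntimycinA 2 (Ndufb7 and Ndufa5), 2 (Uqcr10 and Cyc1), 2 (Cox5a and Cox7b) and 4 (Atp5b, Atp5g3, Atp5a1 and Atp5o) of the same lists fell and 1, Cox7a2l, rose. These genes were named after their values were seen. Over all genes 1.87% fell with 3-NPA, 7.93% with Piericidin and 8.5% with AntimycinA, so the complex I counts are near or below the background. The Piericidin counts of complexes IV and V are above it. So are those of AntimycinA for complexes III, IV and V (2 of 9, 2 of 12 and 4 of 16), on few genes. AntimycinA against Piericidin called 0 genes in each of the lists I, III, IV and V (1, 0, 1 and 2 unadjusted, 0 by DESeq2). The medians of the 4 lists lay between -0.16 and -0.07 with 3-NPA, between -0.32 and -0.14 with Piericidin and between -0.28 and -0.13 with AntimycinA.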

How the data were processed

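The deposited tables hold 1 raw read count per gene and library, made by the authors with bcl2fastq, TopHat, HTSeq and mm10, per the submitters' processing notes. Versions, the strand setting and the handling of reads with several places in the genome are not given in the sources used here. Another 11 per-sample columns were left out, since their names match none of the samples labelled here.

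CPM are counts scaled to a library total of 1000000, and CPM per kilobase divide by the gene length in the tables. All genes entered each fit (edgeR 4.0.16 with limma 3.58.1, R 4.3.3), with filterByExpr by group, TMM factors and the quasi-likelihood test. A call means an adjusted p (Benjamini-Hochberg) under 0.05. The 12 in vitro libraries entered 1 fit, and each pair of knockout groups its own. Printed CPM are not scaled by TMM. Log2 fold changes carry a prior count of 0.125, and the SE is the unshrunken log2 coefficient over the square root of F. The fits were tested on simulated data. Libraries held 2707199 to 50769961 counts.

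The members, the gene lists (54 genes of mitochondrial DNA expression and the nuclear subunits of complexes I, III, IV and V) and the rule for named genes (every mitochondrial mRNA and rRNA, the called or 5 most abundant tRNAs of a table, up to 3 called genes of a list) were chosen with earlier results of these data known. Alternatives were DESeq2 1.42.0, RLE factors, library sizes from nuclear genes, 2 other filters, a block for the replicate number, leaving out each library and fits restricted to the pair of groups in question. For the share of mitochondrial counts, other numerators and denominators were tried. Same-numbered libraries correlated by -0.0411 to 0.029 (RISP_WT and RISP_KO), -0.102 to 0.127 (chimeras) and 0.004 to 0.0904 (in vitro), so the numbers were not taken to pair them.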

Additional observations from a re-analysis of the deposited data

Results flagged for a closer look

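A single library stood far from its 3 fellows in 3 of the 80 group values checked for mRNAs, rRNAs, mt-Tp and the mitochondrial shares, where chance gives about 1 in 20. RISP_WT replicate 4 was high for mt-Nd3, at 2.62 CPM against 1.89 to 1.95 CPM in the other replicates, and for mt-Cytb, at 2935 CPM against 2412 to 2473 CPM. Without it mt-Nd3 lost its call in RISP_KO (adjusted p = 0.0809) and mt-Cytb kept it. RISP_Chimera_WT replicate 4 was low for the share of rRNA counts, at 0.255% against 0.337 to 0.349%. The other groups of 4 libraries showed no such value, and the groups of 3 were too small to check.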

How the results depend on the processing

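The counts of mitochondrial mRNAs called moved most in the chimeras: 1 with edgeR, 4 with DESeq2, 6 with no filter on low counts and 0 to 4 when each library was left out in turn. With the replicate number as a block the count was 7 in the chimeras and 7 rather than 8 in RISP_KO, where mt-Nd3 lost its call (adjusted p = 0.0831). The numbers were not taken to pair libraries, although 10 of 12 in vitro libraries correlated best with their own number. In the chimeras mt-Rnr1 was called higher with no filter (adjusted p = 0.0364) and with the block (0.00657). Piericidin against untreated gave 4 calls, 2 with DESeq2 and 2 to 5 leaving out a library. AntimycinA against 3-NPA gave 2, with DESeq2 0, with no filter 5, and leaving out a library 0 to 3. Leaving out a library gave 7 to 8 calls in RISP_KO, 6 to 7 with 3-NPA, 7 with AntimycinA, 6 to 7 for AntimycinA against Piericidin, 6 for Piericidin against 3-NPA and 0 for the difference of knockout effects. The ratio of mitochondrial shares, counting mRNAs alone, was 0.774 in place of 0.893 in RISP_KO, 0.460 in place of 0.870 with 3-NPA and 0.391 in place of 0.749 with AntimycinA, since the rRNAs did not fall. Of 1745 values of single genes under an alternative, 1663 stayed on their side of the call threshold, 49 lost the call and 33 gained it. In 24 of the 1745, over 15 pairs of a gene and a comparison, the sign changed, none of them called under either setting. Over all genes, calls numbered 1364 in RISP_KO (2068 with DESeq2, 895 with the block, 787 to 1486 leaving out a library), 102 in the chimeras (446 with DESeq2, 208 with no filter, 33 to 177) and 509 for the difference (854 with DESeq2, 324 with the block, 323 to 627). They numbered 377 with 3-NPA (130 to 295), 1584 with Piericidin (1009 to 1421), 465 for AntimycinA against 3-NPA (188 to 454), 86 against Piericidin (43 to 75) and 502 for Piericidin against 3-NPA (230 to 409). The cause of these shifts was not tested. The in vitro libraries, with at most 3445930 counts, limit what can be said of tRNAs most.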
